A study of Caenorhabditis elegans with 8 samples.

Results

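The genes atf-4 (T04C10.4), ces-2 (ZK909.4), irx-1 (C36F7.1) and jmjd-3.2 (F23D12.5) of Caenorhabditis elegans encode regulators of transcription. They were taken by their IDs from a table of small RNA counts per gene, 4 genes of the 1937 listed, because their small RNAs were higher in rde-12 mutants than in wild type in that same table. Their difference between genotypes is therefore given as a description, with no test, and supports nothing. The other transcription and chromatin regulators in the table were tested. They are what was left once the 4 genes were picked for their rise. Shares called among them are thus not independent of that choice.

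The animals were N2, the usual wild-type strain of the worm, and rde-12(hj41), a mutant of RDE-12, one of the DEAD-box helicases with a role in the amplification of RNA interference. No other allele or transgene is given in the labels for either strain. Both groups were whole young adults grown from synchronised larvae for 50 h at 20 °C on OP50, the usual laboratory bacteria, with no double-stranded RNA trigger. Each genotype had 2 libraries, made from pools of many worms that the labels call biological samples. Another 4 libraries of the series came from animals eating a sel-1 trigger and their gene counts were not analysed here.

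In worms, RNA-dependent RNA polymerases copy messenger RNAs into short antisense RNAs, which Argonaute proteins bind, in many cases to silence the matching transcripts. A count for a gene is thus a count of small RNAs matching it and not a measure of its messenger RNA, its protein or its silencing. ATF-4 belongs to the bZIP proteins, which bind DNA through a basic region next to a leucine zipper. Its mammalian counterpart is translated under amino acid or endoplasmic reticulum stress and switches on amino acid metabolism genes. CES-2 is also a bZIP protein and represses ces-1, which lets the sister cells of certain pharyngeal neurons die by programmed cell death. IRX-1 is an Iroquois-type homeobox protein that acts in motor neurons, where it takes part in the remodelling of synapses. JMJD-3.2 carries a JmjC domain and belongs to the family of histone demethylases that remove the methyl mark of Polycomb repression.

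Counts over the listed genes summed to between 4270098 and 5563151 per library. The table is a selection of genes made before deposit, so these totals are not whole-library depths. Levels are given as CPM, which are counts relative to these totals, scaled with TMM factors between 0.987 and 1.03. Markers of germ cells were measured as well. Over all 1931 genes tested, 13.8% were called higher and 13.9% lower in rde-12 by edgeR's quasi-likelihood test at a Benjamini-Hochberg adjusted p under 0.05. Of 24 sperm genes in the table, this test called 7 lower in rde-12, 29.2% of them, and 0 higher. DESeq2 called 3 lower and 0 higher, and at unadjusted edgeR p-values under 0.05 there were 9 lower and 0 higher. Their summed level was between 2076 and 2093 CPM in N2 and between 1598 and 1661 CPM in rde-12. Of 7 germline genes, 0 were called by edgeR or DESeq2 and 2 had an unadjusted p under 0.05, and their summed level was between 3504 and 3712 CPM in N2 and between 3743 and 3852 CPM in rde-12. None of the listed sperm or germline genes was at 0 in every library. The part of these shifts in the results below was not tested.

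The bZIP gene atf-4 held the most small RNAs of the 4. Its counts were 940 and 947 in the N2 libraries and 2026 and 1512 in the rde-12 libraries. Scaled, these were 223 and 217 CPM in N2 and 368 and 338 CPM in rde-12, so that both mutant libraries lay above both wild-type libraries. The mean was 220.1 ± 4.33 CPM in N2 and 353 ± 21.2 CPM in rde-12 (SD, n = 2 each), a 1.60-fold higher level. The log2 change of the fit was 0.68. Setting each mutant library against each wild-type library gave ratios between 1.51 and 1.69. The N2 libraries differed by less than counting error of reads alone gives, 1.97% against 3.26% of the mean, so the N2 SD understates the error. In rde-12 the spread was 6.02% against 2.38%. In whole animals, more cells holding small RNAs and more small RNAs per cell cannot be told apart.

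Small RNAs against ces-2, the second bZIP gene, were scarce. There were 49 and 61 counts in N2 and 132 and 102 in rde-12. These were 11.6 and 13.98 CPM in N2 against 23.96 and 22.8 CPM in rde-12, and the groups did not overlap. The exact Poisson 95% interval of the count ran from 36.3 to 64.8 and from 46.7 to 78.4 in the N2 libraries, and from 110.0 to 157 and from 83.2 to 124 in the rde-12 libraries. These intervals cover counting error of reads only and leave out spread between samples. They are of raw counts, not scaled for library totals, so they cannot be set against one another across libraries. Reads were not tied to single molecules by identifiers, so repeat copies of a molecule would make the intervals too narrow. The mean went from 12.8 ± 1.66 to 23.4 ± 0.832 CPM (SD, n = 2 each), 1.82-fold higher, and the log2 change was 0.87. The ratios between single libraries ran from 1.63 to 2.06. The spread between the N2 libraries, 12.96% of their mean, was close to the 13.5% that counting error alone gives at this depth. Between the rde-12 libraries it was 3.56% against 9.2%, so the SD in rde-12 understates the error of that mean.

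The homeobox gene irx-1 had the largest fold difference of the 4 with all libraries used, and its replicates were the closest relative to their mean. It had 165 and 167 counts in N2 and 419 and 346 in rde-12. Its level was 39.2 and 38.3 CPM in N2 and 76.1 and 77.3 CPM in rde-12, and the groups did not overlap. The mean went from 38.7 ± 0.636 to 76.7 ± 0.869 CPM (SD, n = 2 each), a 1.98-fold higher level with a log2 change of 0.98. The library ratios lay between 1.94 and 2.02. The replicates differed by less than counting error gives, 1.64% against 7.76% of the mean in N2 and 1.13% against 5.11% in rde-12, so the small SD understates the error of these means.

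The demethylase-family gene jmjd-3.2 had the lowest level of the 4 per kilobase of transcript, and relative to the mean it varied the most between replicates in rde-12. It had 83 and 72 counts in N2 and 154 and 145 in rde-12. Its level was 19.7 and 16.5 CPM in N2 and 27.96 and 32.4 CPM in rde-12, again without overlap. The Poisson intervals ran from 66.1 to 103 and from 56.3 to 90.7 raw counts in N2, and from 131 to 180.0 and from 122 to 171 raw counts in rde-12. As they are not scaled for library totals, whether they overlap between libraries cannot be read from them. The mean was 18.1 ± 2.27 CPM in N2 and 30.2 ± 3.14 CPM in rde-12 (SD, n = 2 each), 1.67-fold higher, with a log2 change of 0.73. The library ratios ran from 1.42 to 1.96, the widest range of the 4 genes.

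**Figure D1:**
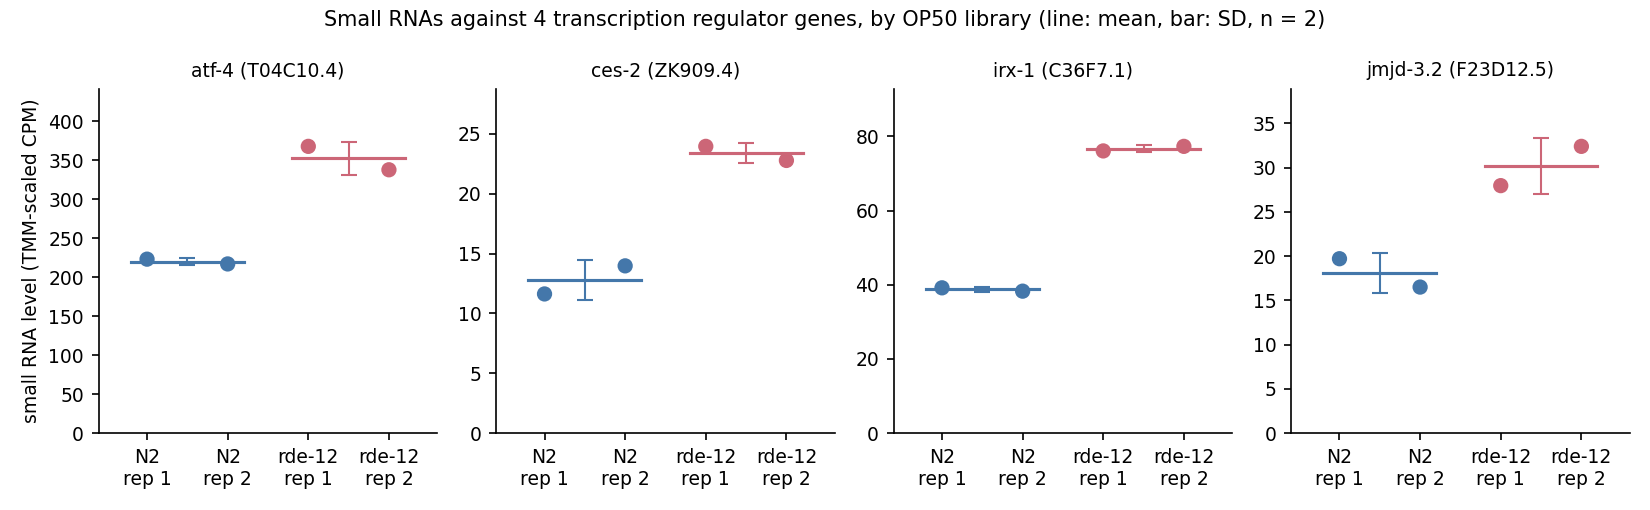
Small RNA level in TMM-scaled CPM (vertical axes, from 0, a different scale for each gene) in the 2 N2 and 2 rde-12 libraries on OP50. Points are libraries, lines are means and bars are SDs. In each panel both rde-12 points lie above both N2 points, with the smallest spread at irx-1 and the widest, relative to the mean, at jmjd-3.2 and in N2 at ces-2.

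All 4 genes had both rde-12 libraries above both N2 libraries, as had 30.8% of the 1931 genes tested. By edgeR's test 13.8% were called higher and 13.9% lower, and with library totals or upper-quartile factors in place of TMM factors, rises made up 60.1% or 64.7% of all calls against 49.9%. Since the 4 genes were picked from this contrast, nothing is read from their place in it. Ranked by log2 change from the largest rise, irx-1 was number 7, ces-2 number 15, jmjd-3.2 number 20 and atf-4 number 26 of the tested genes, whose median log2 change was −0.02. The ratio ranges of atf-4, ces-2 and jmjd-3.2 overlapped one another. The range of irx-1 lay within that of ces-2, overlapped the top of that of jmjd-3.2 and lay wholly above that of atf-4.

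In wild type the 4 genes differed widely in level. In N2, atf-4 lay at the 61.6th percentile of the tested genes, irx-1 at the 13.9th, jmjd-3.2 at the 5.18th and ces-2 at the 3.06th. The median gene had 150.4 CPM in N2 and the lower quartile was 65.3 CPM, so ces-2, irx-1 and jmjd-3.2 lay below the lower quartile. Levels of different genes were compared per kilobase of the longest annotated transcript, which is 1080 bases for atf-4, 1006 for ces-2, 1869 for irx-1 and 2803 for jmjd-3.2 in the WBcel235 annotation. On that scale N2 held 204 CPM per kb for atf-4, 20.7 for irx-1, 12.7 for ces-2 and 6.46 for jmjd-3.2, against a median of 94.9 over the 1896 genes with a length. In rde-12 the levels were 327, 41.0, 23.2 and 10.8 CPM per kb, in the same order. The libraries of neighbouring genes in this order did not overlap in either genotype. In N2 the highest and lowest of the 4 differed 31.5-fold per kilobase. Of the CPM summed over the 4 genes, the share of atf-4 was 75.97% in wild type and 73.0% in the mutant.

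**Figure D2:**
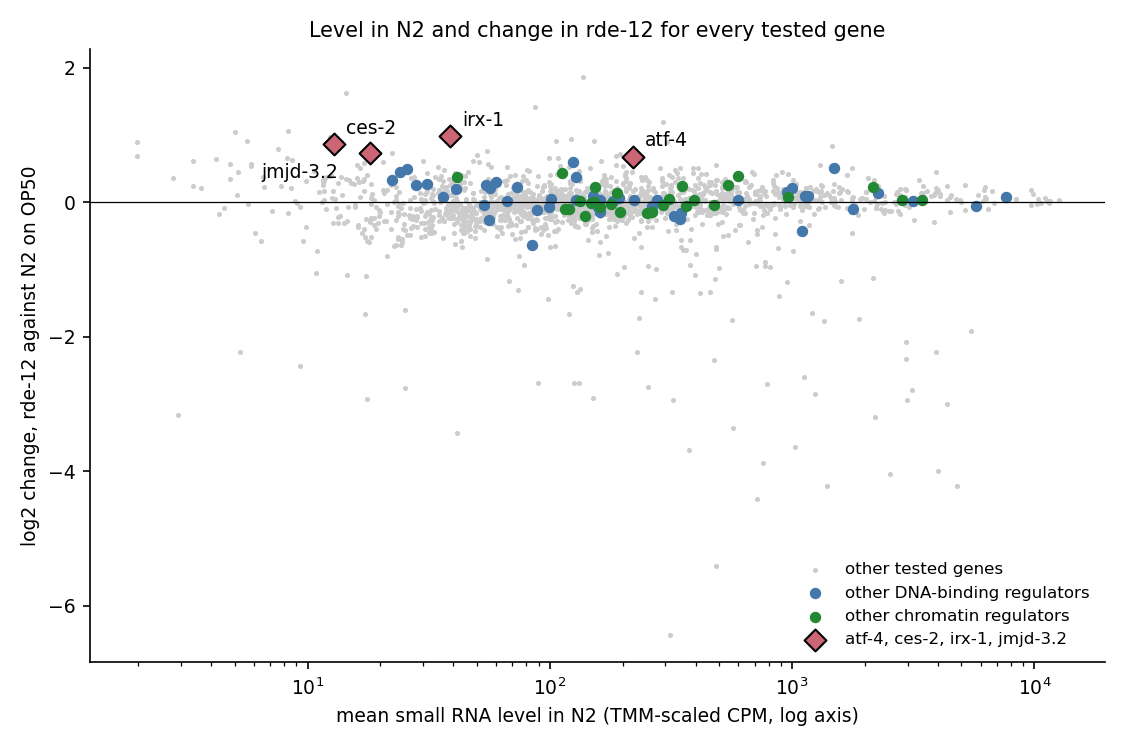
Mean small RNA level in N2 (horizontal, TMM-scaled CPM, log axis) against the log2 change in rde-12 (vertical) for the 1931 tested genes. Diamonds mark the 4 genes, blue and green points the other DNA-binding and chromatin regulators, and grey points the remaining genes. ces-2, jmjd-3.2 and irx-1 sit at the low end of the level axis and atf-4 above the middle. No other regulator reaches their log2 changes, but the 4 genes were picked for their rise, so nothing is read from this.

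The 4 genes lie on 2 chromosomes, ces-2 and irx-1 on I and atf-4 and jmjd-3.2 on X. Of the tested genes with a known chromosome, 20.99% lie on I and 10.1% on X. The WBcel235 annotation places other genes over parts of 3 of the members. Exons of atf-4 and irx-1 overlap those of a short protein-coding gene on the same strand, T04C10.11 and C41G7.7. A non-coding RNA gene, C41G7.13, overlaps irx-1 exons on the opposite strand, and F23D12.7 overlaps the edge of jmjd-3.2 on the opposite strand. No overlapping gene is annotated for ces-2. The strand counted and the treatment of shared reads are not stated in any source used here, so small RNAs from these partners cannot be told apart from those of the members, and the 3 values are uncertain to that extent. The overlapping genes were not found by sequence name among the listed genes, so they have no separate counts here. Among the 2 nearest protein-coding genes on each side of every member, ZK909.3 near ces-2 is in the table. Small RNAs against ZK909.3 fell where those of ces-2 were higher, with 142 ± 0.920 CPM in N2 and 113 ± 7.17 CPM in the mutant (log2 −0.33 ± 0.0754 (SE), adjusted p = 0.00422 by edgeR).

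For each gene, the 3 genes with the most alike pattern over the 4 libraries were found by the root mean square difference of log2 CPM centred on each gene's mean. The pattern of atf-4 was closest to those of R02C2.1 (difference 0.0268), C35B1.5 (0.0284) and the choline kinase gene ckb-4 (0.0316). For ces-2 the closest were Y54G2A.19 (0.0423), F02E11.4 (0.0648) and F13C5.1 (0.0680). For irx-1 they were F31C3.6 (0.0411), afmd-2 (0.0414) and Y71F9B.13 (0.0625). M03A1.8 (0.0405), tag-196 (0.1002) and ZK666.1 (0.104) were closest to jmjd-3.2. These 3 averaged only 7.59, 17.1 and 5.61 CPM in N2, low levels at which counting error blurs the pattern. None of the closest 3 was another of the 4 genes, whose patterns differed from one another by between 0.125 (ces-2 and irx-1) and 0.214 (ces-2 and jmjd-3.2). With 4 libraries in 2 genotypes, this likeness is mostly a like fold and describes these samples alone.

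Other JmjC, homeobox and bZIP genes in the table were tested. They are those left over by the selection for a rise, so the counts called are not independent of it. Of 4 JmjC genes 3 rose, beside 13.8% of all tested genes, and 2 of these calls ended under some alternatives. The genes that rose include 2 close relatives of jmjd-3.2. Those against jmjd-3.1, a demethylase of the same family, were 586 and 607 CPM in N2 and 773 and 794 CPM in rde-12. The rde-12 libraries lay above the N2 libraries, with means of 596 ± 15.1 and 783 ± 15.4 CPM (SD, n = 2 each). The log2 change was 0.39 ± 0.0563 (SE), a 1.31-fold rise (edgeR adjusted p = 5.87e-05). Those against jmjd-3.3, another relative, rose 1.16-fold and averaged 154 ± 6.22 CPM in N2 and 179 ± 10.6 CPM in the mutant (log2 0.22 ± 0.0690, adjusted p = 0.0247 by edgeR). Per kilobase, N2 held 153 CPM for jmjd-3.1 and 58.9 for jmjd-3.3, far above the 6.46 of jmjd-3.2. The JmjC gene jmjc-1 rose 1.17-fold from 2164 ± 30.7 CPM (log2 change 0.23 ± 0.0575, adjusted p = 0.00804). The remaining JmjC gene, rbr-2, which encodes a demethylase of another histone lysine, had a log2 change of −0.02 (edgeR adjusted p = 0.834). The relatives jmjd-3.4 and utx-1 were looked for by symbol and not found among the tested genes. The jmjd-3 genes resemble each other, and where reads matching more than one of them were counted is unknown, which leaves each of their values uncertain. The calls for jmjd-3.3 and jmjc-1 ended without rde-12 replicate 1 (adjusted p = 0.167 and 0.0598), that for jmjd-3.3 also without N2 replicate 1 (0.129) and with DESeq2 (0.132), and that for jmjc-1 without N2 replicate 2 (0.0908).

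Of the other bZIP genes, small RNAs against zip-2, a factor of the response to infection, rose 1.43-fold. They were 1477 and 1509 CPM in N2 and 2227 and 2035 CPM in rde-12, which did not overlap. The means were 1493 ± 22.5 and 2131 ± 136 CPM (log2 change 0.51 ± 0.0600 (SE), edgeR adjusted p = 6.46e-06). Those against crh-2, a CREB-related gene, did not pass the test (log2 change 0.21, adjusted p = 0.163), and zip-9 had between 0 and 3 counts per library and was not tested. The genes atf-2 and ces-1 were looked for by symbol and not found among the tested genes. Of 4 homeobox genes 1 rose and 2 fell, again beside 13.8% and 13.9% of all tested genes. Small RNAs against ceh-43, the worm counterpart of Distal-less, fell from 82.8 and 85.7 CPM in N2 to 57.2 and 50.7 CPM in rde-12. The change was 1.56-fold (log2 −0.64 ± 0.1001, edgeR adjusted p = 0.000148). Those against ceh-39, a ONECUT gene that takes part in sex determination, fell 1.19-fold (log2 −0.25, adjusted p = 0.00872), and those against ceh-82 rose 1.36-fold (0.45, adjusted p = 0.0300). The homeobox gene ceh-20 did not pass the test (log2 change −0.10, adjusted p = 0.218). The call for ceh-82 ended with DESeq2 (adjusted p = 0.193) and without N2 replicate 1 (0.272) or rde-12 replicate 1 (0.159), and that for ceh-39 without N2 replicate 1 (0.0503) or rde-12 replicate 2 (0.0595).

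**Figure D3:**
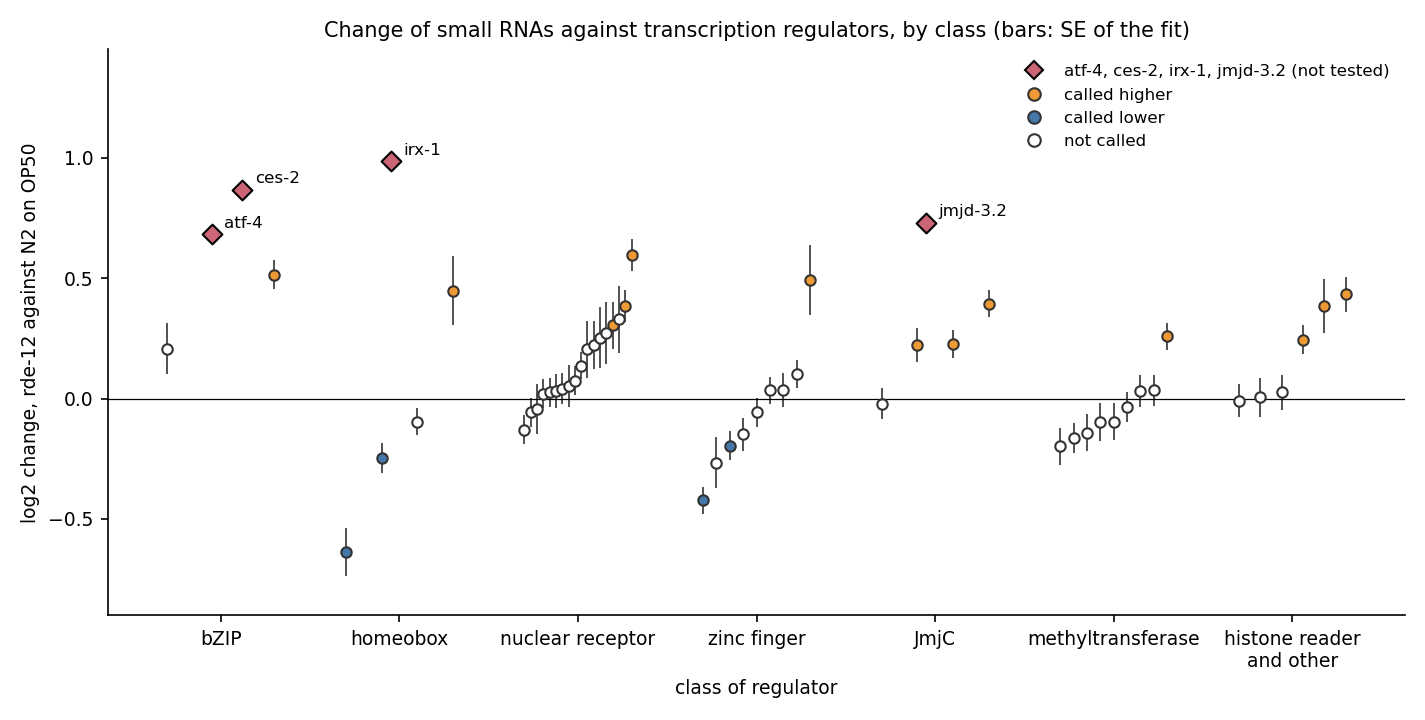
Log2 change of small RNAs in rde-12 against N2 (vertical) for the 4 genes (diamonds, not tested) and the other regulators of 7 classes (circles, bars are the SE of the fit). The 7 include the classes of the 4 genes and were not chosen by size. bZIP, with 2 tested, is drawn. Mediator and TAF genes, with 4 tested, and a mixed class of 5 tested, 1 of them called higher, are not drawn. Filled circles passed edgeR's test; zfp-1 is drawn with the zinc finger genes. The JmjC class has 3 of 4 other genes called higher and the homeobox class 1 higher and 2 lower of 4, beside 13.8% higher and 13.9% lower of all tested genes; the calls for jmjd-3.3, jmjc-1, ceh-82 and ceh-39 ended under some alternatives.

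Over all classes, 47 other DNA-binding regulators were listed and 46 tested. This list and that of chromatin regulators below leave out the 4 genes picked for their rise. Small RNAs against 7 rose and against 4 fell, 15.2% and 8.70% of those tested, beside 13.8% and 13.9% over all tested genes. Their median log2 change was 0.05. With DESeq2 there were 4 rises and 3 falls, with upper-quartile factors 11 rises and 3 falls. The number of rises was 3 without N2 replicate 1, 4 without rde-12 replicate 1 and 11 without rde-12 replicate 2, and that of falls was 2 without rde-12 replicate 2. Of 18 nuclear hormone receptor genes, 3 rose and 0 fell. Small RNAs against nhr-58 rose 1.51-fold, from 126 and 123 CPM in N2 to 189 and 188 CPM in the mutant (log2 0.60 ± 0.0655 (SE), adjusted p = 3.07e-06 by edgeR), the largest rise among the other regulators tested. Those against nhr-204 rose 1.30-fold (0.38, adjusted p = 0.000474) and those against nhr-146 1.23-fold (0.30, adjusted p = 0.0287). Among the zinc finger genes, ztf-13 rose 1.41-fold (0.49, adjusted p = 0.0188) at only 25.7 CPM in N2, and klf-1, a Krüppel-like factor of fat metabolism, fell 1.34-fold. It went from 1134 and 1072 CPM in N2 to 838 and 808 CPM in rde-12 (log2 −0.42 ± 0.0570, adjusted p = 3.18e-05). ztf-8, which acts in the DNA damage response, fell 1.15-fold (−0.20, adjusted p = 0.0259), a call that ended under 6 of the alternatives, among them DESeq2 (adjusted p = 0.130). The calls for ztf-13 and nhr-146 also ended with DESeq2 (0.120 and 0.163) and without N2 replicate 1 (0.213 and 0.0649), and that for nhr-146 without N2 replicate 2 (0.174) or rde-12 replicate 1 (0.0760).

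Of 28 other chromatin regulators, small RNAs against 7 rose and against 0 fell in edgeR's test, beside 13.8% and 13.9% of all tested genes. DESeq2 called 5 rises and 0 falls, and 2 falls had unadjusted p-values under 0.05. The median log2 change of the list was 0.02, near that of all genes. Without rde-12 replicate 1 there were 3 rises, and without that library or without N2 replicate 1 there was 1 fall. Besides the 3 JmjC genes, athp-3, whose product carries AT-hook and PHD finger motifs, rose 1.35-fold, with 112 ± 5.46 CPM in N2 and 151 ± 1.71 CPM in the mutant (log2 0.43 ± 0.0728 (SE), adjusted p = 0.000295 by edgeR). dot-1.5, a relative of the Dot1 histone methyltransferases, rose 1.197-fold, with means of 546 ± 12.3 CPM in N2 and 654 ± 1.17 CPM in rde-12 (0.26 ± 0.0563, adjusted p = 0.00265). The HP1 gene hpl-1 rose 1.30-fold (0.38, adjusted p = 0.0184) and the chromodomain gene cec-8 1.18-fold (0.24, adjusted p = 0.00628). The call for hpl-1 ended with DESeq2 (adjusted p = 0.134) and without N2 replicate 1 (0.148) or rde-12 replicate 1 (0.109), and that for cec-8 without rde-12 replicate 1 (0.0611). The most abundant regulators of both lists did not pass the test. nhr-88 had 7646 ± 205 CPM in N2 against 8044 ± 143 in the mutant (log2 0.07, adjusted p = 0.403 by edgeR). zfp-1, counted in both lists, had 5716 ± 164 and 5494 ± 163 CPM (−0.06, adjusted p = 0.519).

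From general knowledge, 7 measured genes were listed as partners in the pathways of the members. Small RNAs against 2 rose (28.6%) and against 1 fell (14.3%), beside 13.8% and 13.9% of all tested genes, and 4 did not pass edgeR's test. DESeq2 called 1 rise and 1 fall. Of those listed by symbol for the stress pathway of ATF-4, 4 were measured. Small RNAs against sesn-1, which encodes the stress-responsive protein sestrin, fell 1.51-fold, from 160 and 164 CPM in N2 to 108 and 105 CPM in rde-12. The groups did not overlap (log2 change −0.60 ± 0.0708 (SE), edgeR adjusted p = 7.75e-06). Those against the initiation factor gene eif-2A (log2 change −0.13, adjusted p = 0.141), nprl-3 (−0.05, 0.632) and the TOR kinase gene let-363 (−0.03, 0.714) did not pass. The gene eif-2A was listed by its symbol alone, and its place in the ATF-4 pathway was not checked. For ces-2, the listed gene was dnj-11, which acts with it in the asymmetric division that precedes this cell death, with a log2 change of −0.06 (adjusted p = 0.518). For the Polycomb mark, jmjd-3.1 and jmjd-3.3 above were the measured genes. They are relatives of jmjd-3.2 and make up the 2 rises, which are therefore not a separate result. None of the partner genes chosen for irx-1 was among the genes used here.

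Over 11 alternatives the log2 change lay between 0.63 and 0.74 for atf-4, between 0.75 and 1.01 for ces-2, between 0.97 and 1.04 for irx-1 and between 0.61 and 0.87 for jmjd-3.2. These values moved by more than the spread between replicates for ces-2 without N2 replicate 2. They did so for irx-1, whose spread was the smallest, with library totals (1.01), with upper-quartile factors (1.04) and when the first library of either genotype was left out (1.01 each). The order of ces-2 and jmjd-3.2 depended on the library left out. Without N2 replicate 1, jmjd-3.2 was at 0.87 and ces-2 at 0.75, and without rde-12 replicate 1 they were at 0.85 and 0.84. Without N2 replicate 2, ces-2 was at 1.01, above irx-1 at 0.97. The order of atf-4 and jmjd-3.2 changed as well. With all libraries they were at 0.68 and 0.73, without N2 replicate 2 at 0.66 and 0.61, and without rde-12 replicate 2 at 0.74 and 0.63. These alternatives use the libraries from which the genes were picked, so their likeness is no independent check.

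**Figure D4:**
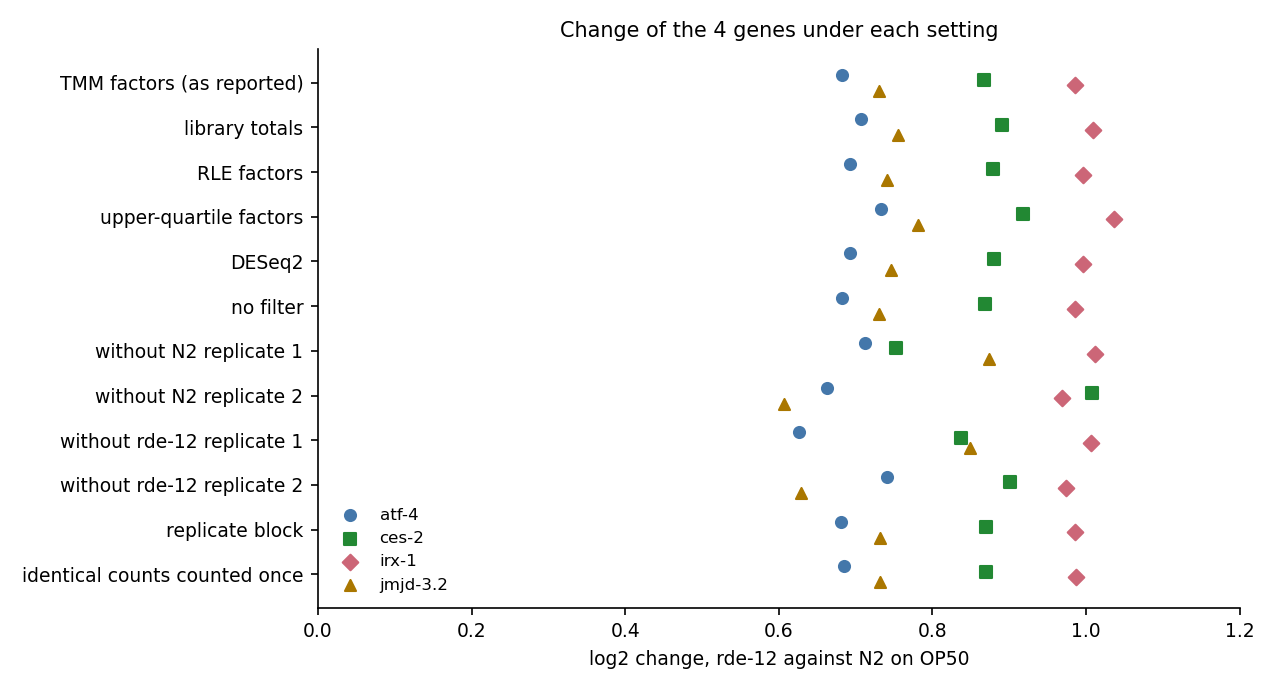
Log2 change of small RNAs in rde-12 against N2 on OP50 (horizontal, from 0) for the 4 genes under the reported setting and 11 alternatives (rows). Every value lies above 0.6, and irx-1 moves between 0.97 and 1.04. ces-2 and jmjd-3.2 change places when N2 replicate 1 or rde-12 replicate 1 is left out. atf-4 and jmjd-3.2 change places when N2 replicate 2 or rde-12 replicate 2 is left out.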

How the data were processed

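Small RNA was, per the labels' protocols, enriched, cut from a gel at 20 to 26 nt, treated with TAP (an enzyme that opens triphosphate ends to ligation) and indexed. The submitters' processing notes name TopHat 1.4.1, SAMtools and bedtools. Not given in the sources used here: build, annotation, strand, treatment of multiple matches, choice of genes. The deposited table holds raw small RNA counts per gene, not normalized. Its 22 repeat rows were counted once. RefSeq names (WBcel235) matched 1900 of 1937 genes, and Ensembl WBcel235 annotation gave lengths for 1902.

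Groups came from sample titles. Genotypes were compared with the quasi-likelihood test of edgeR 4.0.16 (R 4.3.3) after TMM scaling. filterByExpr took out 6 genes, p-values were adjusted over the other 1931 by Benjamini-Hochberg, and DESeq2 1.42.0 was an alternative. SEs are the absolute log2 change over the square root of F. Log2 CPM for pattern likeness used a prior count of 2. The test was checked on simulated data. Replicates were no repeat deposits: chi-square per degree of freedom between them was 3.50 in N2 and 4.13 in rde-12. With 2 libraries a group, p-values rest on the spread between these samples. The sel-1 region counts were not used.

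The 4 genes, the lists and the tests were chosen with earlier results of these data known. Lists of DNA-binding, chromatin, partner, sperm and germline genes were written by symbol from general knowledge. Named regulators are those called, up to 12 a direction by size of change, the 2 with the highest N2 level, all measured partners, relatives and neighbours, and 3 genes alike in pattern per member. Uncalled bZIP, homeobox and JmjC genes were named to complete their class, after their values were seen.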

Additional observations from a re-analysis of the deposited data

How the results depend on the processing

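Of 385 values under alternatives, 335 held their direction and call (for counts, stayed within 1.5 times; for the 4 genes, within the spread between replicates). Of 19 other named genes that were called, 10 kept their call in every alternative run, among them zip-2, nhr-58, jmjd-3.1, klf-1, ceh-43 and sesn-1, and 9 lost it at least once. DESeq2 called 157 genes lower against 268 with edgeR, and 4 DNA-binding regulators higher against 7. With upper-quartile factors 11 DNA-binding regulators were higher and the log2 change of irx-1 was 1.04, and with library totals it was 1.01. With 1 library left out, genes called higher ranged from 165 to 308 and lower from 175 to 304. Higher DNA-binding regulators ranged from 3 to 11, lower ones from 2 to 4, higher chromatin regulators from 3 to 7 and lower ones from 0 to 1. The log2 change ranged from 0.75 to 1.01 for ces-2 and from 0.97 to 1.01 for irx-1. The uncalled changes of nprl-3 and let-363 turned sign with upper-quartile factors (0.0042 and 0.017), and that of dnj-11 without N2 replicate 2 (0.016; range with a library left out −0.13 to 0.016). The causes were not tested. Same-numbered replicates did not deviate together (correlation over genes 0.0237). With 2 libraries a genotype, this cannot settle whether the numbers pair the samples. With the replicate number as a block 243 genes were called higher and 230 lower, and the calls for ceh-82, hpl-1, nhr-146 and jmjd-3.3 ended (adjusted p = 0.0798, 0.0567, 0.0589 and 0.0627). Between 49 and 154 counts per library lie behind ces-2 and jmjd-3.2, which limits their precision.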
